A study of Mus musculus with 8 samples.

Results

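The subject is a set of 42 genes of autophagy and of the lysosome, chosen by name, in keratinocytes of mouse skin with and without Hmgb1. All 42 had a row among the 24421 gene symbols of the files, and all 42 were among the 13016 genes that passed the filter on low counts. They cover the initiation complex, the Beclin 1 lipid kinase complex, the ATG9, ATG2 and WIPI proteins that supply membrane, the conjugation enzymes, the ATG8 family, cargo receptors, the transcription factors TFEB and TFE3, and lysosomal proteins.

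Bulk RNA sequencing of total RNA gave 8 libraries, 4 control and 4 knockout, from mice of the strain CBA x C57Bl/6J. Controls were InvEE mice with both Hmgb1 alleles floxed (HMGB1 fl/fl) and without K5 Cre, and knockouts were InvEE HMGB1 fl/fl mice with K5 Cre, which the labels also call DKer HMGB1. Both groups therefore carried the InvEE transgene, an activated form of the kinase MEK1 driven by the involucrin promoter, which is active in differentiating keratinocytes, and no library without it was compared here. K5 Cre acts in basal keratinocytes and their descendants and was present in the knockouts only, so an effect of Cre cannot be told apart from the loss of Hmgb1. Age and sex are not given in the sources used here. Nothing in the labels ties each numbered replicate to its own animal. The p-values therefore reflect how far these libraries differ among themselves, a spread that may be technical in part. Y-linked counts, given with the markers, differed within both groups, so the libraries of a group did not all come from the same animal. Knockout replicate 4 was identified by the title of its sample, because its file carries another number.

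Autophagy encloses cytoplasm in a double membrane and delivers it to the lysosome. The ULK1 kinase complex starts the process, the Beclin 1 complex makes the phosphoinositide that marks the growing membrane, ATG9 and ATG2 bring lipid to it, and a pair of ubiquitin-like conjugation systems attach ATG8 proteins such as LC3 and GABARAP, which bind receptors that carry cargo. HMGB1 outside the nucleus can bind Beclin 1 protein, and in skin autophagy and lysosomal proteases take part in the turnover of keratinocytes as they cornify. TFEB and TFE3 drive many lysosomal and autophagy genes through the CLEAR element, which has the letters CACGTG at its core.

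Hmgb1, the deleted gene, was measured at 565.5, 599.3, 585.5 and 615.0 CPM (counts scaled to a common library size) in control replicates 1 to 4 and at 113.4, 118.7, 126.2 and 114.1 CPM in knockout replicates 1 to 4. It fell 5.01-fold (log2 fold change -2.32, SE 0.09, edgeR adjusted p = 3.576e-07), with no overlap between the groups. The sources used here do not give the exons that the floxed allele loses. Processed copies of the gene can share its reads. Libraries held 30506676 to 34229030 counts on genes. The factors by which TMM scales library sizes were 1.022 to 1.059 in controls and 0.906 to 1.00 in knockouts, with the lowest values in knockout replicates 1 and 2. Keratinocyte markers (Krt5, Krt14, Trp63, Itga6, Dsp and Perp) summed to 45300 to 54200 CPM in controls and 49500 to 57800 CPM in knockouts. Markers of the suprabasal layers, 4 genes with Krt10 among them, summed to 7050 to 11500 CPM in controls and 12300 to 15500 CPM in knockouts. Of the 4, 1 was called higher, Krt10 (1.77-fold), while Krt1, Ivl and Lor were not. Ivl rose by the same 1.77-fold without overlap between the groups (edgeR adjusted p = 0.1059). Krt1 and Lor had folds of 1.21 and 1.16, with overlapping groups. The 9 macrophage and dendritic cell markers summed to 23.8 to 66.6 CPM in controls and 20.6 to 53.7 CPM in knockouts, with 0 called by edgeR. T cell, neutrophil, fibroblast, endothelial and melanocyte markers each summed to under 24 CPM in every library, and the neutrophil marker Retnlg was at 0 in all of them. Among these and the keratinocyte markers, edgeR called only Dcn and Perp. The fibroblast marker Dcn was 2.89-fold higher (from 0.66 ± 0.23 to 1.92 ± 0.61 CPM) and the keratinocyte marker Perp 1.37-fold higher. Of the other fibroblast markers, Col1a1, Col1a2 and Col3a1 had folds of 1.18, 0.743 and 1.08, with overlapping groups. Pdgfra, at 0 to 12 counts, did not enter the test. The fibroblast sum was 5.92 to 11.9 CPM in controls and 3.16 to 23.9 CPM in knockouts. Y-linked genes summed to between 6110 and 6743 counts in control replicates 2 and 3 and knockout replicate 1, and to at most 51 counts in the other libraries.

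Few autophagy and lysosome genes passed the test. 2 of the 42 passed the test, Atg9b, which rose 6.34-fold, and the lysosomal protease gene Ctsl, which fell to 60.4% of its control level. That is 4.76% of the set, against a background of 8.87% of all 13016 tested genes at an edgeR adjusted p under 0.05 (4.33% higher and 4.54% lower in knockouts). By edgeR the set thus held no larger share of called genes than the rest of the transcriptome. By DESeq2, given below, its share was somewhat the larger, while by limma-voom, with or without quality weights, it was the smaller. In bulk RNA, fewer cells of a type and less RNA per cell cannot be told apart. For 38 of the 42 genes the 95% interval of the fold change lay within 2-fold in both directions, and for 35 it lay within 1.5-fold. The 7 with wider intervals were Atg9b, Wipi1, Atg12, Gabarapl1, Sqstm1, Optn and Ctsl.

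**Figure D1:**
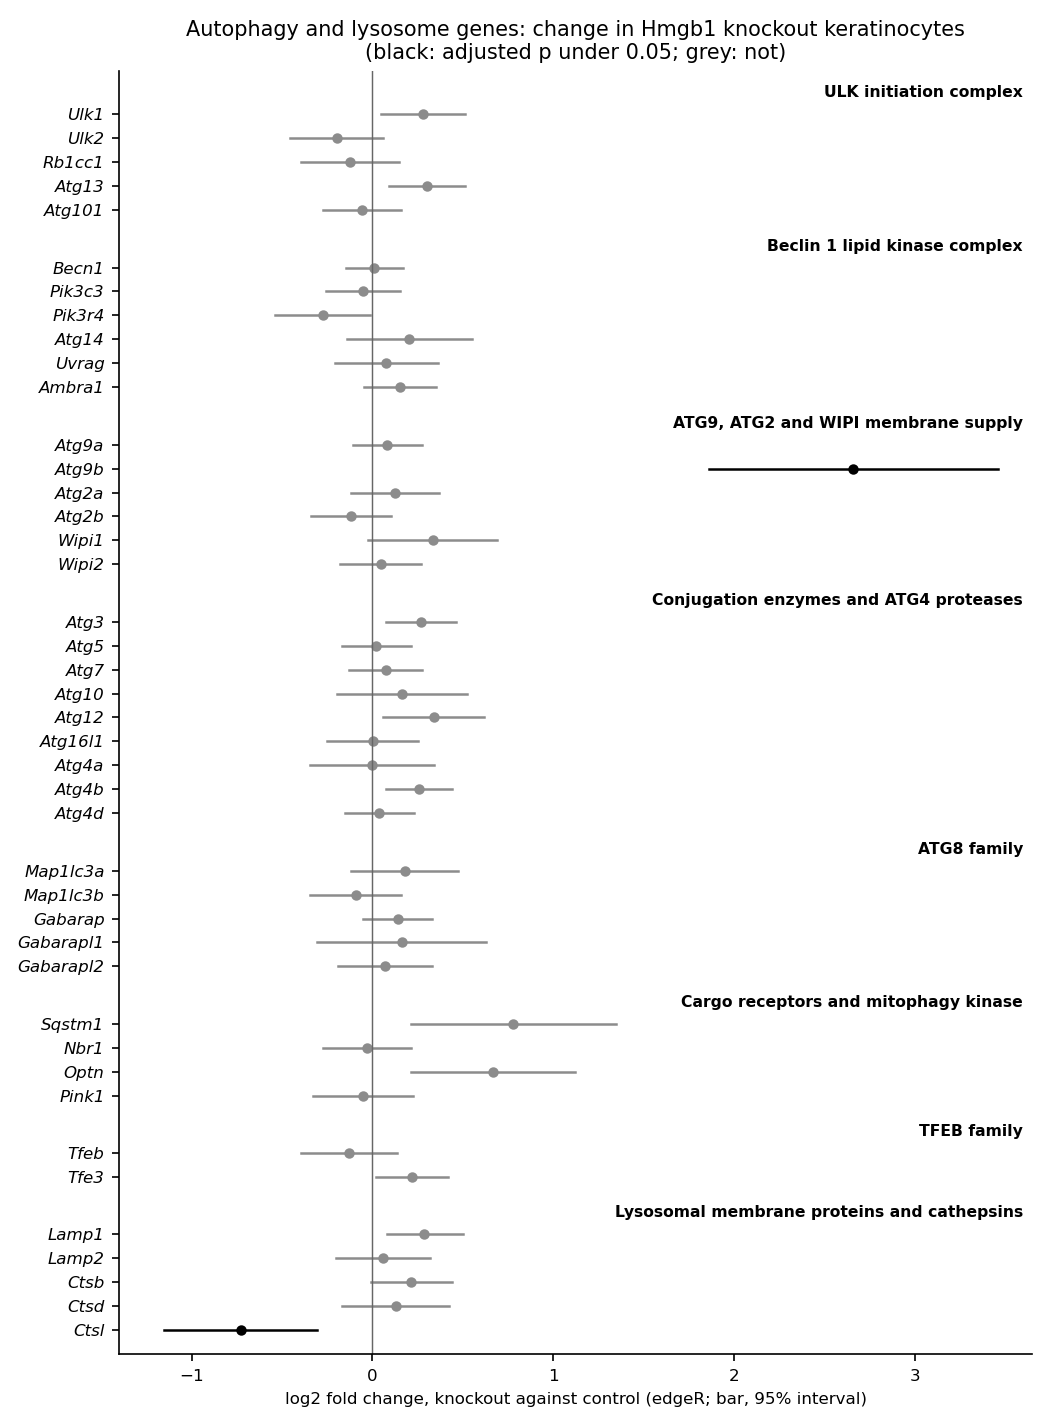
Log2 fold change of each of the 42 genes, knockout against control (points, edgeR; bars, 95% interval), grouped by role along the vertical axis. Atg9b stands at 2.66 and Ctsl at -0.73, and all others but Sqstm1 and Optn lie within 0.35 of 0.

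Without regard to that threshold, more genes of the set had higher than lower values. The log2 fold change was above 0 for 30 of the 42 and below 0 for 12, against 46.9% of all tested genes above 0, and the set's median was 0.08 where that of all tested genes was -0.02. At an unadjusted edgeR p under 0.05 stood 12 genes, 10 higher and 2 lower, which is 28.6% of the set against 26.2% of all tested genes. Of all tested genes, 13.0% were higher and 13.2% lower at that unadjusted p. When only the libraries with under 1000 Y-linked counts were fitted, a smaller number of libraries, 2 of the 42 stood there, against 2226 of 13256 tested genes. In that fit 27 of the 42 were above 0, against 49.2% of all tested genes. The 4 knockout libraries were all above the 4 controls for 8 genes (19.0%), namely Ulk1, Atg13, Atg9b, Atg3, Atg4b, Optn, Tfe3 and Lamp1, against 7.95% of all tested genes. They were all below the controls for 1 gene, Ctsl (2.38%), against 9.00% of all tested genes. The count above 0 depended on scaling. With library totals only, which moved the median of all genes by -0.107, it was 20 of 42. The distance between the set's median and that of all genes was 0.101, against 0.102 with TMM scaling. Scaling moves all genes nearly alike, so this distance could hardly change with it, and the closeness is no check on it. The distance was 0.066 in the fit of the libraries with under 1000 Y-linked counts. With 1 library left out it ran from 0.083 (without knockout replicate 2) to 0.149 (without knockout replicate 3). DESeq2 called 8 of the 42, which is 19.0% of the set against 15.4% of all tested genes. They were Atg9b, Ctsl, Atg13, Atg3, Atg4b, Lamp1, Optn and Sqstm1. Limma-voom called 2 of the 42, Atg9b and Ctsl, against 8.46% of all tested genes, and with quality weights 5, against 14.3%. Both are smaller shares of the set than of all tested genes.

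The initiation complex had 0 of 5 genes called by edgeR, with 2 at an unadjusted p under 0.05. Ulk1, the kinase of the complex, was at 129.0, 102.2, 114.3 and 130.1 CPM in the controls and at 138.7, 164.4, 132.2 and 142.8 CPM in the knockouts (log2 fold change 0.28, SE 0.10, edgeR adjusted p = 0.1175). Every knockout library lay above every control, by a narrow margin between control replicate 4 and knockout replicate 3. Atg13, the adaptor that holds the complex together, was at 81.98, 74.39, 81.82 and 85.61 CPM in the controls and at 108.0, 111.0, 89.92 and 90.89 CPM in the knockouts (log2 fold change 0.30, SE 0.10, edgeR adjusted p = 0.07124). Knockout replicates 1 and 2 were the high ones, and the groups did not overlap. Without knockout replicate 3 Atg13 passed, at an edgeR adjusted p of 0.04887. The second kinase Ulk2, the scaffold Rb1cc1 (FIP200) and Atg101, which stabilises Atg13, had log2 fold changes of -0.20, -0.12 and -0.06, with overlapping groups.

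Becn1, the gene for the protein that HMGB1 binds, had nearly the same level in all libraries. It was at 70.64, 68.76, 68.82 and 74.92 CPM in the controls and at 72.60, 72.52, 69.58 and 70.81 CPM in the knockouts. The groups overlapped, and the fold change of 1.01 had a 95% interval of 0.904 to 1.12 (edgeR adjusted p = 0.9326). Its spread was small, with a coefficient of variation of 4.08% in controls and 2.03%, the lowest of the 42 genes, in knockouts. Exons of the neighbouring gene Cntd1 overlap those of Becn1 on the opposite strand over 1394 bases, and without strand in the counting their reads cannot be told apart. Of the other genes of this complex, 0 of 5 were called by edgeR and 1, Pik3r4, had an unadjusted p under 0.05. Pik3r4, the regulatory subunit VPS15, was at 30.27, 32.30, 43.50 and 34.06 CPM in the controls and at 27.85, 27.30, 30.68 and 29.96 CPM in the knockouts (log2 fold change -0.28, SE 0.12, edgeR adjusted p = 0.1721). Control replicate 3 was the highest and knockout replicate 3 lay just above control replicate 1. The lipid kinase Pik3c3 (VPS34) had a log2 fold change of -0.05, its partners Atg14 and Uvrag, which define separate forms of the complex, 0.21 and 0.08, and Ambra1, which links it to ULK1, 0.15.

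Among genes that supply membrane, 1 of 6 was called, and it showed the largest change of the whole set. ATG9 proteins are lipid scramblases carried on small vesicles. Atg9a is the widely expressed form and Atg9b is restricted to fewer tissues. Atg9b was at 1.145, 0.6391, 2.557 and 1.227 CPM in the controls and at 10.06, 10.97, 7.016 and 7.261 CPM in the knockouts. The lowest knockout library lay well above the highest control, control replicate 3, and the group means were 1.39 ± 0.82 and 8.83 ± 1.99 CPM (SD, n = 4 each). The log2 fold change was 2.66 (SE 0.36, 95% interval 1.86 to 3.46, edgeR adjusted p = 0.004535). It was called in all 20 alternative fits, at 2.43 to 3.17, with adjusted p-values of up to 0.02001. The gene was nonetheless the lowest of the set in controls, with as few as 20 counts in a library. The suprabasal marker Krt10 was also called higher in the knockouts, and the part of suprabasal cells in this difference was not tested.

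Atg9b lies on the minus strand of chromosome 5, at 24384181 to 24392143 (GENCODE vM21, GRCm38), and its annotated exons overlap the last part of Nos3, on the plus strand, over 294 bases. Nos3, the endothelial nitric oxide synthase, had 3 to 14 counts per library, with 0.26 ± 0.12 CPM in controls, against 0.20 ± 0.13 CPM in knockouts (SD, n = 4 each), too few to enter the test. Atg9a was at 60.07 ± 6.16 CPM in controls, against 63.66 ± 1.68 CPM in knockouts (SD, n = 4 each), with a log2 fold change of 0.08 with an edgeR adjusted p of 0.5842. Per kilobase of transcript, Atg9b made up 2.11%, 1.19%, 3.75% and 2.0% of the sum of both ATG9 genes in the controls and 14.1%, 14.7%, 10.5% and 10.6% in the knockouts. By these counts Atg9a stayed the main ATG9 transcript in every library. Exons of Gm29253, on the same strand, overlap those of Atg9a over 1832 bases, and the part of its reads in the Atg9a count was not tested. Atg2a, a lipid transfer protein, was at 81.76, 68.67, 74.48 and 77.81 CPM in the controls and at 92.44, 93.34, 72.97 and 71.54 CPM in the knockouts (log2 fold change 0.13, edgeR adjusted p = 0.5056). Knockout replicates 1 and 2 were above the controls and replicates 3 and 4 among them. Its paralog Atg2b had a log2 fold change of -0.12, and the phosphoinositide readers Wipi1 and Wipi2 had 0.33 and 0.05, with none of the 3 called.

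**Figure D2:**
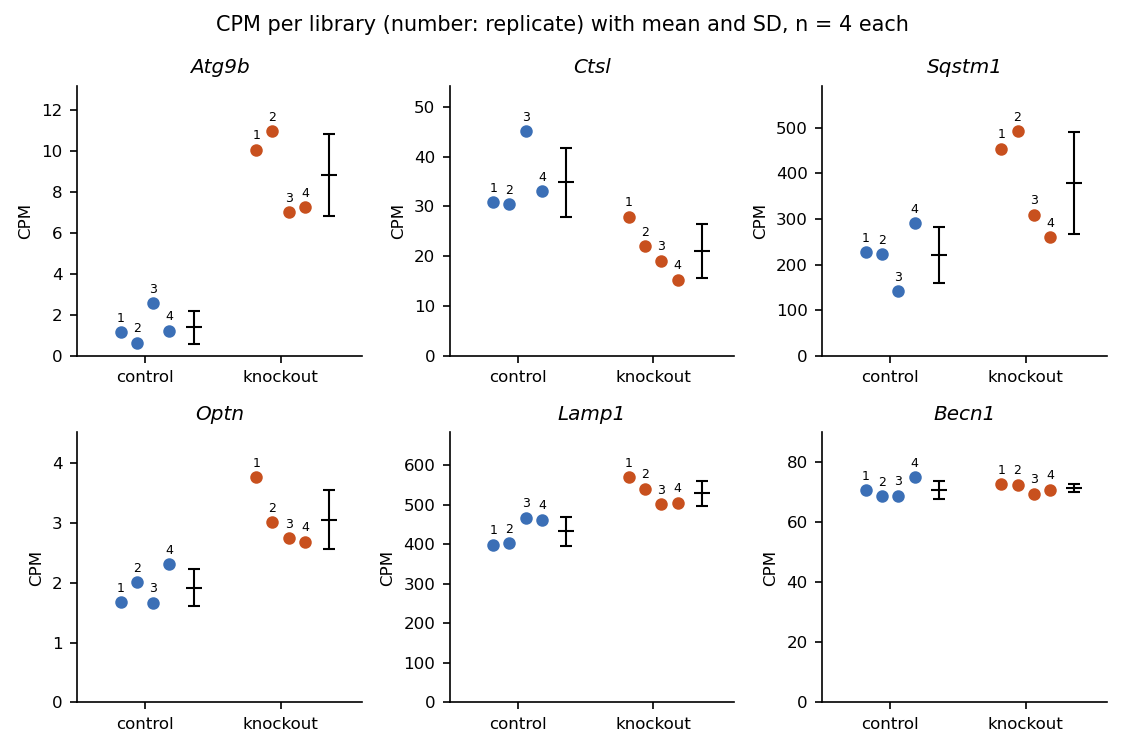
CPM of Atg9b, Ctsl, Sqstm1, Optn, Lamp1 and Becn1 in each library (points) with the group mean and SD; each panel has its own vertical axis. For Atg9b, Optn and Lamp1 all knockout points lie above the control points, for Ctsl all lie below, and for Sqstm1 and Becn1 the groups overlap.

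Promoter sequences are shown for Atg9b, which had the largest change, and for Lamp1 and Atg3, whose knockout libraries all lay above the controls and whose promoters hold CACGTG. Each is the 250 bases before the annotated start in RefSeq (GRCm38.p6), written 5′ to 3′ on the strand of the gene. Capitals mark matches to CACGTG and, in Lamp1, 1 match to the core of the interferon-stimulated response element, which is TTTC, any pair of bases, and TTTC again. The windows are chr5:24392144-24392393 on the minus strand for Atg9b, chr8:13158911-13159160 on the plus strand for Lamp1 and chr16:45158579-45158828 on the plus strand for Atg3.
Atg9b: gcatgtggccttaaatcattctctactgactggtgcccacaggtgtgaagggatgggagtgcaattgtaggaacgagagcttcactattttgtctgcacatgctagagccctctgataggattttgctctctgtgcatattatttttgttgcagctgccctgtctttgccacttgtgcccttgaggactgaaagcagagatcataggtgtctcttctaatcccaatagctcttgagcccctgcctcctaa
Lamp1: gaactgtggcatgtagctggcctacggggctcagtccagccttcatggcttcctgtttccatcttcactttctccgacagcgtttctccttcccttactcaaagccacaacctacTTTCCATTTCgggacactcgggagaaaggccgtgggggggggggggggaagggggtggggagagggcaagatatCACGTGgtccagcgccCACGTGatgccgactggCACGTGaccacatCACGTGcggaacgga
Atg3: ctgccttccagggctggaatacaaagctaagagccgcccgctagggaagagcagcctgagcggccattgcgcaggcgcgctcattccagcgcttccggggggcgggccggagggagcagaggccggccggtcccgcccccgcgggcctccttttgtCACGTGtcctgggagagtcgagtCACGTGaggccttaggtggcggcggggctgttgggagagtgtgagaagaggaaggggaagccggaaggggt

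Lamp1 held 4 matches to CACGTG, at 61, 45, 28 and 15 bases before the start, and Atg3 held 2, at 94 and 71 bases. The Atg9b window held 0 matches to any of the 4 motifs searched on both strands, which says only that these letters are not in this window. The motifs were CACGTG, the full CLEAR palindrome, which contains it between GT and AC, TGACNNNGC, the core of the antioxidant response element, and the interferon-stimulated core. A window was used where its start lay within 50 bases of an annotated GENCODE transcript start, which held for 30 of the 42 genes. CACGTG was present for 4 of these 30 (Lamp1, Atg3, Atg5 and Ctsd), in 4 of their 34 windows. It was in 8.25% of the 9934 windows of tested genes and in 6.63% of all 18465 windows. Among the other genes with every knockout above every control, Ulk1, Atg13, Atg4b and Tfe3 held 0 matches to CACGTG, as did Atg9b. Optn had no window that could be used. The full palindrome was found for 0 of the 30, and in 0.534% of the windows of tested genes. TGACNNNGC was found for 3 (Atg13, Ulk2 and Ctsd), and in 11.6% of those windows. The interferon-stimulated core was found for 1, Lamp1, and in 2.59%. Of the 4 genes with CACGTG, Lamp1 and Atg3 had log2 fold changes of 0.29 and 0.27, Ctsd had 0.13 and Atg5 0.02, and edgeR called none of them.

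Of the 9 conjugation genes, 0 were called by edgeR and 3 had an unadjusted p under 0.05, all with higher means in knockouts. Atg3, the E2-like enzyme that transfers ATG8 proteins to lipid, was at 48.25, 50.61, 46.54 and 50.01 CPM in the controls and at 66.80, 58.57, 57.16 and 52.88 CPM in the knockouts (log2 fold change 0.27, SE 0.09, edgeR adjusted p = 0.08266). The groups did not overlap, and knockout replicate 1 was the highest. Atg12, the ubiquitin-like protein that is joined to ATG5, was at 41.44, 42.27, 31.33 and 34.52 CPM in the controls and at 54.31, 50.22, 39.77 and 44.92 CPM in the knockouts (log2 fold change 0.34, SE 0.13, edgeR adjusted p = 0.1191). Knockout replicate 3 lay below control replicates 1 and 2. Atg4b, the protease that trims and recycles ATG8 proteins, was at 43.53, 46.84, 44.76 and 44.89 CPM in the controls and at 59.21, 55.26, 50.24 and 50.64 CPM in the knockouts (log2 fold change 0.26, SE 0.08, edgeR adjusted p = 0.07523). The controls spanned little more than 3 CPM and all knockouts were above them. The E1-like enzyme Atg7, the E2-like Atg10, the ATG12 partners Atg5 and Atg16l1 and the proteases Atg4a and Atg4d had log2 fold changes between 0.00 and 0.16 in size, with adjusted p-values of 0.5635 and above.

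The ATG8 family had 0 of 5 genes called by edgeR, and 0 at an unadjusted p under 0.05. LC3 and GABARAP proteins coat the growing membrane and bind cargo receptors. Map1lc3b, which encodes the LC3B used as the standard marker of autophagosomes, was at 136.9 ± 12.6 CPM in controls, against 128.5 ± 18.2 CPM in knockouts (SD, n = 4 each), with a log2 fold change of -0.09 with a 95% interval of -0.34 to 0.16. Gabarap was at 130.1, 126.3, 116.9 and 132.3 CPM in the controls and at 148.7, 145.4, 138.4 and 124.5 CPM in the knockouts (log2 fold change 0.14, edgeR adjusted p = 0.3339). Knockout replicate 4 lay inside the range of the controls. Map1lc3a, Gabarapl1 and Gabarapl2 had log2 fold changes of 0.18, 0.16 and 0.07. For all 5 genes knockout replicate 4 was the lowest of the knockouts, and knockout replicate 1 or 2 was the highest.

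Cargo receptors included the largest differences that did not pass the test. Sqstm1 encodes p62, which binds ubiquitinated cargo and LC3 and is itself degraded with it. It was at 227.5, 222.3, 141.4 and 290.4 CPM in the controls and at 453.5, 492.4, 308.9 and 260.3 CPM in the knockouts. Knockout replicates 1 and 2 were far above the others, and knockout replicate 4 lay below control replicate 4. The fold change was 1.72 with a 95% interval of 1.16 to 2.55 (edgeR adjusted p = 0.08549), and DESeq2 called it at an adjusted p of 0.01188. Exons of Mrnip overlap those of Sqstm1 on the opposite strand over 580 bases. Optn encodes optineurin, a receptor for damaged mitochondria and bacteria. It was at 1.675, 2.013, 1.663 and 2.307 CPM in the controls and at 3.759, 3.012, 2.748 and 2.683 CPM in the knockouts. The groups did not overlap, at a fold change of 1.59 (95% interval 1.16 to 2.18, edgeR adjusted p = 0.06758, DESeq2 adjusted p = 0.02328). Nbr1, a receptor related to p62, had a log2 fold change of -0.03. Pink1, the kinase that marks damaged mitochondria, had -0.05.

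Neither transcription factor of the TFEB family was called by edgeR. Tfe3 was at 67.01, 70.46, 61.48 and 66.98 CPM in the controls and at 88.75, 74.58, 70.94 and 75.45 CPM in the knockouts (log2 fold change 0.22, SE 0.09, edgeR adjusted p = 0.152). The groups did not overlap, but knockout replicate 3 was within 1 CPM of control replicate 2. Tfeb was at 19.28 ± 1.65 CPM in controls, against 17.61 ± 2.25 CPM in knockouts (SD, n = 4 each), with a log2 fold change of -0.13. These factors are controlled largely by where the protein sits in the cell, which transcript levels do not show.

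Of the 5 lysosomal genes, 1 was called lower and 4 had higher means without passing the test. Ctsl encodes cathepsin L, a cysteine protease whose loss in mice gives a thickened epidermis and a defect of the hair cycle. It was at 30.80, 30.45, 45.13 and 33.04 CPM in the controls and at 27.96, 21.97, 19.08 and 15.25 CPM in the knockouts. All knockouts lay below all controls, although knockout replicate 1 was close to them and control replicate 3 was far above the other controls. The log2 fold change was -0.73 (SE 0.19, 95% interval -1.15 to -0.30, edgeR adjusted p = 0.04291). The call was close to the threshold and was lost on leaving out any of 7 of the 8 libraries. Leaving out control replicates 1, 2, 3 and 4 in turn gave an edgeR adjusted p of 0.05616, 0.06783, 0.07759 and 0.07376. Leaving out knockout replicates 2, 3 and 4 gave 0.1016, 0.081 and 0.08064. It was 0.02331 without knockout replicate 1, 0.05073 with RLE scaling and 0.03485 when only the libraries with under 1000 Y-linked counts were fitted. The gene lies on the minus strand of chromosome 13, at 64359337 to 64370890 (GENCODE vM21, GRCm38), where the annotated antisense gene Gm47123 overlaps its exons over 1742 bases. A processed pseudogene, Gm49230, overlaps them on the same strand over 395 bases. Macrophage and dendritic cell markers, from cells that also make cathepsins, had overlapping sums in the groups, as given above, and their part in this difference was not tested.

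None of the other 4 lysosomal genes passed the test. Lamp1, a main glycoprotein of the lysosomal membrane, was at 399.4, 403.0, 467.1 and 462.2 CPM in the controls and at 569.1, 540.8, 500.8 and 505.6 CPM in the knockouts (log2 fold change 0.29, SE 0.10, edgeR adjusted p = 0.08337). The groups did not overlap, and knockout replicates 1 and 2 were the highest. Ctsb, the cysteine protease cathepsin B and the member with the most counts, was at 454.5, 479.3, 528.1 and 500.7 CPM in the controls and at 652.8, 562.2, 556.1 and 509.1 CPM in the knockouts (log2 fold change 0.22, SE 0.10, edgeR adjusted p = 0.2071). Knockout replicate 4 lay below control replicate 3. Exons of Ctsb overlap those of Fdft1, the squalene synthase gene on the opposite strand, over 774 bases. Fdft1, named here after its values were seen, was at 88.99 ± 31.1 CPM in controls, against 185.1 ± 43.1 CPM in knockouts (SD, n = 4 each, edgeR adjusted p = 0.04938), and the share of its reads in the Ctsb count was not tested. Ctsd, the aspartic protease cathepsin D, and Lamp2, the second main membrane glycoprotein, had log2 fold changes of 0.13 and 0.06, with overlapping groups.

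Levels between genes were compared as CPM per kilobase of transcript, taking for each gene the longest annotated transcript that GENCODE pairs with a RefSeq mRNA. The control means spanned 0.357 for Atg9b to 194 for Lamp1. The 8 highest were Lamp1, Ctsd (151), Ctsb (103), Map1lc3a (96.0), Gabarap (93.6), Lamp2 (91.3), Sqstm1 (82.4) and Map1lc3b (54.1). Not all genes of these families led the set. The cathepsin gene Ctsl stood at rank 18, and the ATG8 genes Gabarapl1 and Gabarapl2 at ranks 9 and 14. Lamp1 and Ctsd overlapped in their spread over controls (179 to 210 and 119 to 193), and so did each neighbouring pair from Ctsb to Map1lc3b. Every control value of Ctsd was above every one of Ctsb (95.8 to 111), and every one of Map1lc3b was above those of Gabarapl1 (22.1 to 33.1). Genes of several roles followed. Of the genes from Gabarapl1 at rank 9 to Atg2b at rank 31, control means ran from 28.2 to 10.2 and each neighbouring pair overlapped, with Becn1 at 16.2 and Atg9a at 14.9. At the low end stood Ulk2 (3.83), Atg4a (3.07), Atg10 (2.94), Wipi1 (2.62), Optn (0.733) and Atg9b, and all control values of Wipi1 were above those of Optn. In the knockouts Sqstm1 moved from rank 7 to rank 3, at 142, and Ctsl from rank 18 to rank 29, at 10.7. Atg9b, at 2.26 in the knockouts, passed only Optn, at 1.17.

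**Figure D3:**
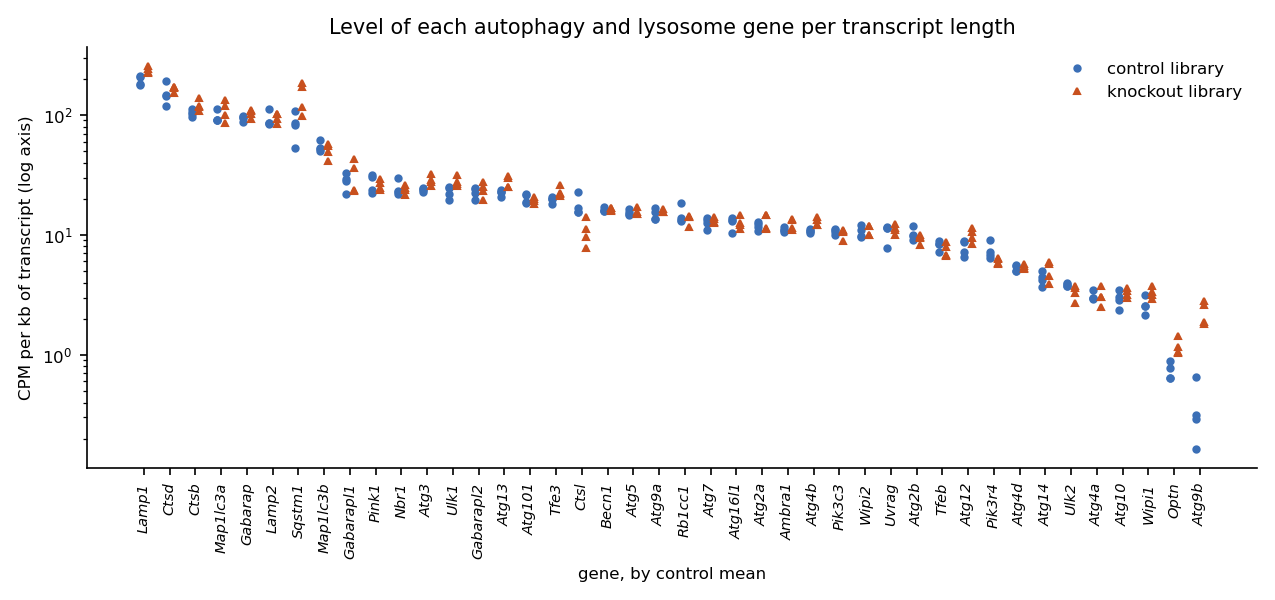
CPM per kilobase of transcript (log axis) of the 42 genes in each control library (circles) and knockout library (triangles), ordered by control mean. Lamp1 leads at 194 in controls, and Atg9b is the lowest in controls at 0.357 and at 2.26 in knockouts.

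The knockout libraries were not alike in these genes. The set's median log2 difference from the control mean, of log2(CPM + 0.5), was 0.20 in knockout replicate 1, 0.16 in replicate 2, 0.04 in replicate 3 and 0.03 in replicate 4. Over all tested genes it was -0.04, -0.03, 0.00 and 0.00 in the same order. Among the controls the set's median lay between -0.03 and 0.01. Knockout replicate 1 was the highest of the 4 knockouts for 21 of the 42 genes, against 29.3% of all tested genes, and replicate 2 for 10, against 18.1%. The 8 genes with every knockout above every control all had their highest value in replicate 1 or 2, as had Sqstm1 with overlapping groups. The same share among all tested genes with every knockout above every control was not computed. These 2 libraries also had the lowest TMM factors, 0.906 and 0.9504, and the part of scaling in their higher values was not tested. Control replicate 3 was the highest of all 8 libraries for 10 of the 42 genes, near its share of 20.1% of all tested genes, and the lowest for 12, where its share of all tested genes was 19.8%.

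**Figure D4:**
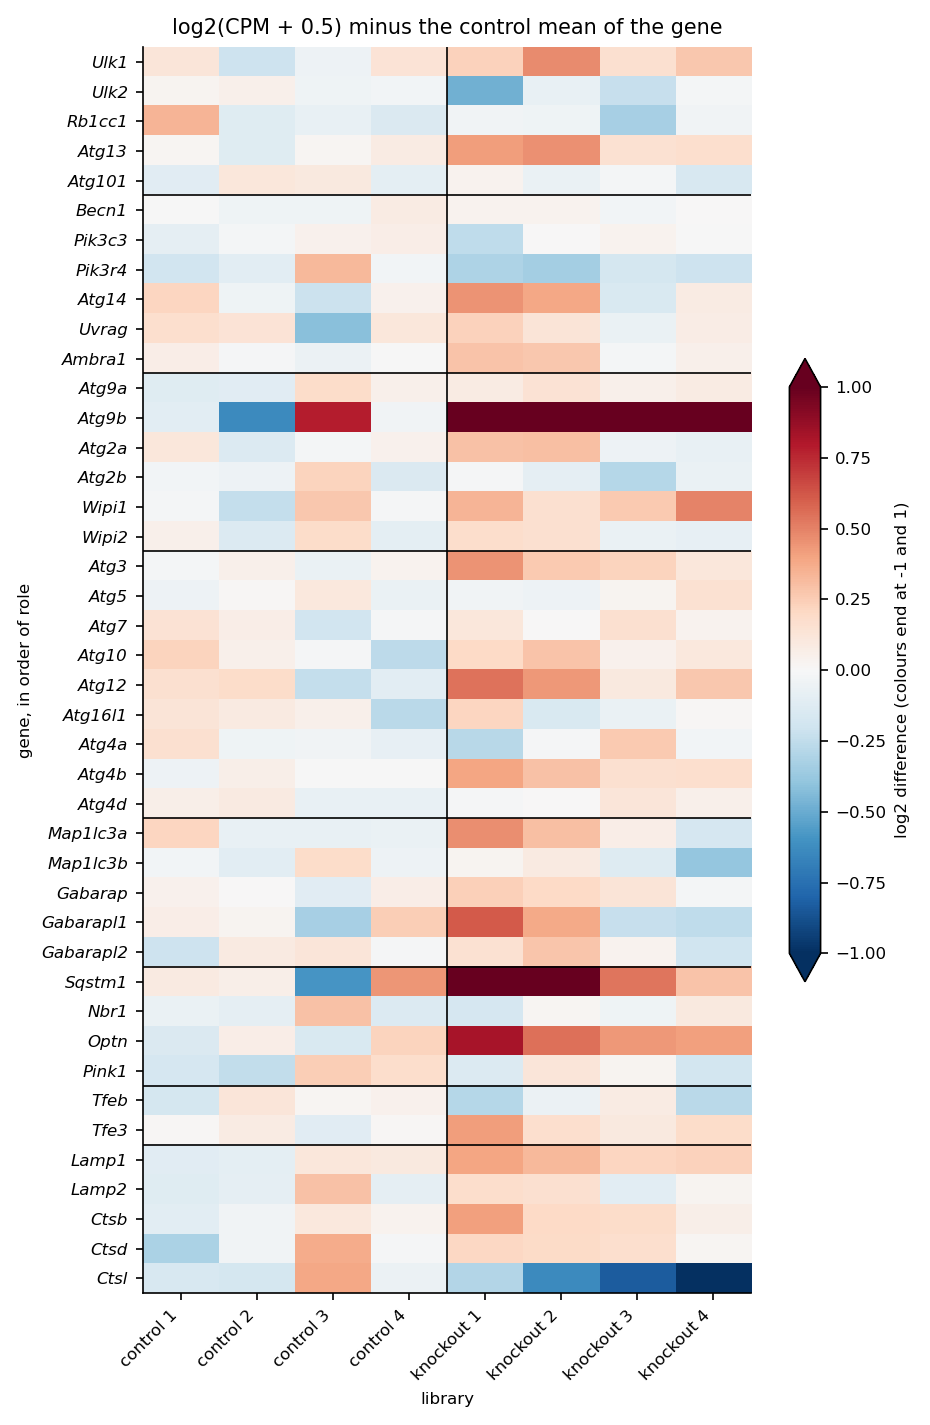
Difference of log2(CPM + 0.5) from the control mean of each of the 42 genes (rows, in order of role) in the 8 libraries (columns); red is higher, blue lower, and colours end at -1 and 1. Knockout replicates 1 and 2 are red in more rows than replicates 3 and 4, with set medians of 0.20 and 0.16 against 0.04 and 0.03.

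Outside the set, 154 other genes of the same pathways had a row, of which 151 were tested, and 15 of these were called, 10 higher and 5 lower (9.93%, against 8.87% of all tested genes). The lists were assembled from textbook roles with earlier results of these data known. Of 26 other genes of the autophagy machinery, 3 were called (11.5%), all higher. Vmp1 (73.03 ± 21.5 to 129.2 ± 28.3 CPM) and Tmem41b (59.41 ± 5.72 to 80.74 ± 8.49 CPM), a pair of scramblases of the endoplasmic reticulum that work with ATG2 and ATG9, rose, and so did Vps18 (14.24 ± 1.58 to 22.54 ± 5.51 CPM), a subunit of the HOPS and CORVET tethers. Of 19 other receptors and mitophagy genes, 3 were called (15.8%), all higher. Tollip, a ubiquitin-binding adaptor, was at 355.5, 349.4, 258.4 and 323.5 CPM in the controls and at 666.4, 620.7, 477.5 and 486.3 CPM in the knockouts. It had no overlap between groups, and rose by 0.81 on the log2 scale (SE 0.14, edgeR adjusted p = 0.008913). The mitochondrial ubiquitin ligase Mul1 (37.31 ± 1.89 to 51.36 ± 7.93 CPM) and Tex264, a receptor for the endoplasmic reticulum (45.66 ± 3.09 to 57.56 ± 5.34 CPM), rose less.

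Of 42 other lysosomal hydrolases, 1 was called higher and 3 lower, 9.52% of the list and near the 8.87% of all tested genes. The cathepsin genes Ctsz (11.87 ± 1.23 to 6.53 ± 0.89 CPM, edgeR adjusted p = 0.00725) and Ctsf (16.02 ± 1.07 to 10.67 ± 1.66 CPM) fell, as did the acid alpha-glucosidase gene Gaa (50.83 ± 3.30 to 37.39 ± 4.04 CPM). The fucosidase gene Fuca1 rose (40.68 ± 2.70 to 52.99 ± 3.77 CPM). Of 34 other lysosomal membrane and V-ATPase genes, 2 were called (5.88%), both higher. They were Atp6v0a2, a subunit of the proton pump (77.69 ± 9.95 to 116.1 ± 8.02 CPM, edgeR adjusted p = 0.009204), and the chloride-proton exchanger gene Clcn7 (47.40 ± 2.20 to 62.40 ± 5.28 CPM). Of 30 tested genes that control mTORC1 and AMPK, 1 was called higher and 2 lower, a share near the 8.87% of all tested genes. Ddit4, a stress-induced inhibitor of mTORC1, was at 32.92, 45.72, 39.21 and 36.07 CPM in the controls and at 77.72, 69.57, 61.08 and 77.25 CPM in the knockouts, a rise of 0.89 on the log2 scale (SE 0.12, edgeR adjusted p = 0.003376). Mitf, which encodes a factor related to TFEB and is also the master regulator of melanocytes, fell from 11.41 ± 1.23 to 6.76 ± 0.53 CPM (edgeR adjusted p = 0.008629). Melanocyte markers summed to 5.81 to 6.61 CPM in controls and 6.09 to 7.5 CPM in knockouts. Prkag1, a regulatory subunit of AMPK, fell from 58.07 ± 3.85 to 46.97 ± 2.73 CPM. All these means are given with SD over 4 libraries.

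**Figure D5:**
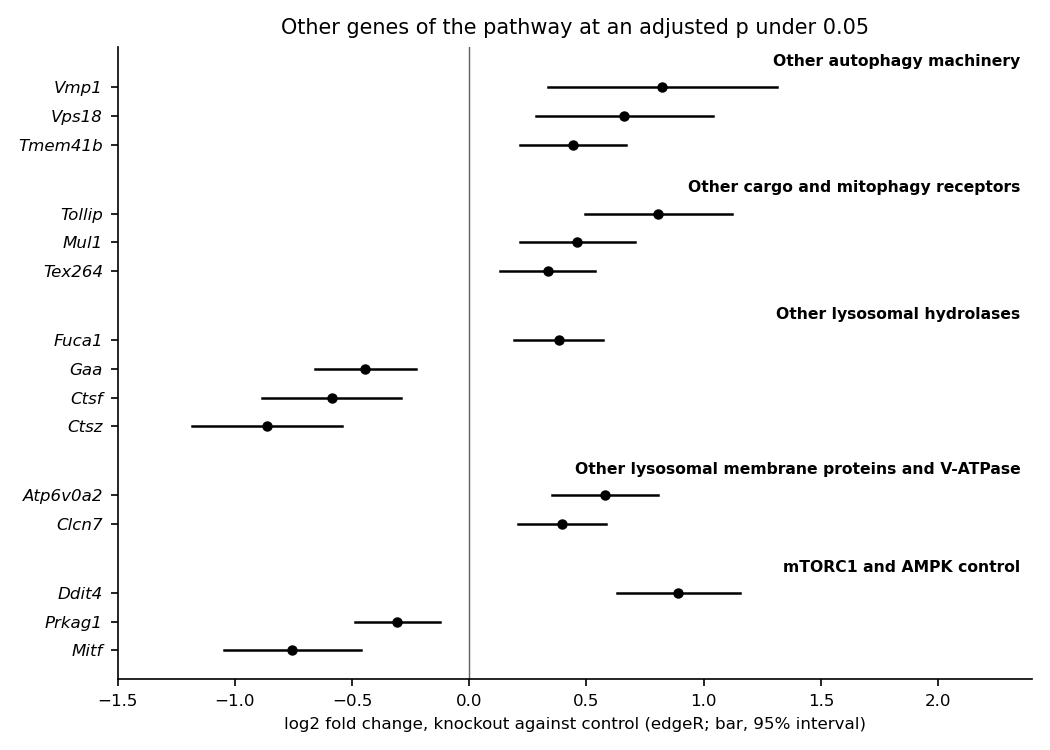
Log2 fold change, knockout against control (points, edgeR; bars, 95% interval), of the 15 other pathway genes at an adjusted p under 0.05, grouped by list. Ddit4 stands highest at 0.89 and Ctsz lowest at -0.86.

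Ctsz, Atp6v0a2 and Ddit4 kept their calls in all 20 alternative fits. Tollip and Mitf kept theirs whichever of the 8 libraries was left out, but lost them when only the libraries with under 1000 Y-linked counts were fitted (edgeR adjusted p = 0.0556 and 0.09839). The others lost theirs in at least 1 of the fits that left out a library. Gaa lost it without knockout replicate 2 (edgeR adjusted p = 0.06773), and Clcn7 without control replicate 2 (0.0626) or knockout replicate 2 (0.07006). Mul1 kept it only without knockout replicate 3 (0.01775) or 4 (0.03965), Vps18 only without knockout replicate 3 (0.01612), Vmp1 only without control replicate 3 (0.02178), Tex264 only without knockout replicate 4 (0.03711) and Prkag1 only without knockout replicate 3 (0.04915). Fuca1, Ctsf and Tmem41b lost theirs in 3, 3 and 4 of the 8 fits. For Fuca1 these were the fits without control replicates 2 (0.06785) and 3 (0.05014) and knockout replicate 2 (0.08339), and for Ctsf those without control replicates 2 (0.07646) and 4 (0.05081) and knockout replicate 4 (0.05229). For Tmem41b they were those without control replicates 3 (0.05301) and 4 (0.06397) and knockout replicates 1 (0.05683) and 2 (0.07423).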

How the data were processed

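The authors deposited unnormalized whole-number counts for each gene symbol. The mm10 build and the tools TopHat2 2.1.0, Trimmomatic 0.35, FastQC 0.11.4 and SAMtools 0.1.18 come from the submitters' processing notes. How reads were counted, on which annotation and with or without strand is not given in the sources used here. The closing lines for reads outside genes (15.7 to 21.7%) and ambiguous reads (0.918 to 1.11%) were left out.

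All 8 libraries were fitted in R 4.3.3 with edgeR 4.0.16. Genes were filtered by filterByExpr, libraries scaled by TMM, and genotype tested by the robust quasi-likelihood test with Benjamini-Hochberg adjustment over 13016 genes at a threshold of 0.05. The steps were tested on simulated data. CPM use the TMM-scaled library sizes. Alternatives used DESeq2 1.42.0, limma 3.58.1 (voom, with and without quality weights), other scalings and filters, non-robust dispersion, a replicate block, Y-linked counts (over or under 1000) as a term or as a limit on the libraries fitted, and each library left out. Coordinates and lengths come from GENCODE vM21, where 12544 of 13016 tested symbols matched, and promoters from RefSeq (GRCm38.p6).

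The genes and lists were chosen with earlier results of these data known. Values in every library are given for genes of the set at an unadjusted p under 0.05, for Becn1 and for the member with the highest mean CPM in each role, and other pathway genes are named where called, up to 4 a list.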

Additional observations from a re-analysis of the deposited data

Results flagged for a closer look

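In 8 of 116 groups of 4 libraries examined, 1 library stood far from the other 3 by Dixon's test, which flags about 1 group in 20 by chance. Control replicate 1 was high for Rb1cc1, at 140.8 CPM where the other controls were at 100.2 to 105.7. It was also high for Atg4a (7.595 against 6.368 to 6.561 CPM) and Map1lc3a (123.5 against 100.8 to 101.6 CPM). Control replicate 3 was low for Uvrag (40.2 against 58.3 to 60.31 CPM) and high for Nbr1 (142.6 against 105.3 to 110.9 CPM) and Lamp2 (401.5 against 300.8 to 307.7 CPM). Knockout replicate 3 was low for Rb1cc1 (88.3 against 107.5 to 108.5 CPM), and knockout replicate 1 was low for Pik3c3 (29.14 against 34.7 to 35.6 CPM). None of these genes was called by edgeR.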

How the results depend on the processing

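Atg9b and Optn rest on the fewest counts, both under 3 CPM in controls, and 4 libraries a group limit every gene. Hmgb1 was called in all 20 alternatives, at -2.36 to -2.30 with 1 library left out. All tested genes called were 1154, against 2010 with DESeq2, 1866 with quality weights, 383 when only the libraries with under 1000 Y-linked counts were fitted, and 462 to 1247 with 1 library left out. The split was 370 higher and 997 lower with library totals only and 460 and 723 with upper-quartile scaling, against 563 and 591. Of the 42 genes, 8 were called with DESeq2, 5 with quality weights (Atg9b, Ctsl, Atg13, Lamp1 and Ulk1), 1 with RLE scaling, and 1 to 2 with 1 library left out. Of the other pathway genes, 15 were called, against 28 with DESeq2, 25 with quality weights, 4 in the libraries with under 1000 Y-linked counts and 6 to 16 with 1 library left out. Same-numbered libraries did not deviate together (correlations of -0.173, -0.228, -0.0528 and -0.0612, and 0 of 4 controls correlated best with their own number). With the replicate number as a block, 723 genes, 1 of the 42 (Atg9b) and 10 other pathway genes were called, and Ctsl had an edgeR adjusted p of 0.07107.

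Signs that turned all belonged to genes of the set that edgeR did not call. Over only the libraries with under 1000 Y-linked counts, log2 fold changes were Atg101 0.025, Becn1 -0.036, Pik3c3 0.022, Atg14 -0.012, Uvrag -0.093, Atg2a -0.008, Atg16l1 -0.008, Atg4a 0.04, Map1lc3a -0.001, Gabarapl1 -0.163 and Nbr1 0.131. With library totals only they were Becn1 -0.096, Uvrag -0.032, Atg9a -0.025, Wipi2 -0.068, Atg5 -0.083, Atg7 -0.032, Atg16l1 -0.111, Atg4d -0.066, Gabarapl2 -0.04 and Lamp2 -0.055. With upper-quartile scaling they were Becn1 -0.041, Wipi2 -0.011, Atg5 -0.029, Atg16l1 -0.054 and Atg4d -0.012. With quality weights they were Atg16l1 -0.035, Atg4a 0.005, Nbr1 0.05 and Pink1 0.055, and with a filter of 1 CPM Atg16l1 was -0.005. Atg4a was 0.01 with DESeq2 and with RLE scaling, and 0.011 with no filter. With 1 library left out the range crossed 0 for Rb1cc1 (-0.171 to 0.007), Becn1 (-0.001 to 0.041), Pik3c3 (-0.079 to 0.017), Uvrag (-0.043 to 0.13), Atg5 (-0.014 to 0.059), Atg16l1 (-0.082 to 0.054), Atg4a (-0.11 to 0.09), Map1lc3b (-0.155 to 0.005), Gabarapl1 (-0.012 to 0.293), Gabarapl2 (-0.00 to 0.164), Nbr1 (-0.077 to 0.079) and Pink1 (-0.13 to 0.034). The cause was not tested.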
